A study of Mus musculus with 12 samples.

Results

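Partial ligation exposes a carotid artery to disturbed flow, and the comparison described here sets the ligated left artery (LCA) of wild-type mice against their untouched right artery (RCA) 1 day after surgery. It rests on 6 of the 12 arrays of the study, chosen by their titles: 3 arrays of wild-type (WT) LCA and 3 of WT RCA. The other 6 arrays hold the LCA and RCA of mice without fibulin-5 (KO), a protein that helps elastic fibres to assemble, and the study asked how its loss bears on arterial stiffness and atherosclerosis under disturbed flow. All 12 samples are labelled C57Bl/6J and total RNA, and both genotypes carried the ligation on the left. Disturbed flow was checked by ultrasound in the study, per the labels' protocols. Age and sex are not given in the labels used here, nor is it stated how the knockout line was made or whether arrays with the same replicate number share a mouse. The p-values therefore measure the spread between arrays. They and the standard errors come from 1 fit of all 12 arrays, so they also carry the spread of the KO arrays. The artery on the other side is an internal control that shares the animal's circulation and surgery, and no array of a sham operation was analysed here.

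Endothelial cells sense the drag of blood on their surface. Steady laminar flow keeps the transcription factors KLF2 and KLF4 high, and these in turn keep nitric oxide synthase and anticoagulant genes on. Where flow is low and reverses, as at branch points and after partial ligation, this programme is known to wane, and genes for leukocyte adhesion, matrix and growth signals are known to take its place, which is the setting in which plaques form.

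Values are array intensities on a linear scale, put on a common distribution by the authors, and were compared as log2 values. Signal was low: the median intensity was 93.6, and 95% of values lay below 197. The 95th percentile of the 1504 probes for olfactory and vomeronasal receptors, which are little used in arteries, served as a guide to background and lay between 96.5 and 126 on the WT arrays. Of 19057 genes with a probe, 38.3%, 45.7% and 28.5% exceeded this level on RCA replicates 1, 2 and 3. The shares were 40.8%, 33.4% and 16.02% on LCA replicates 1, 2 and 3. The third LCA array thus stood apart, with a median correlation of 0.63 with the other 11 arrays against 0.73 to 0.84 for the rest, so results are also given without it. A gene is called at background in a group where none of its 3 arrays exceeded this level. Fbln5 itself gives no check of the genotype labels, since its single probe lay at background on all 12 arrays, from 80.6 to 97.4.

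Endothelial and smooth muscle genes were both detected in part. Of 21 endothelial markers, 17 exceeded the background level on all 3 RCA arrays, as did 12 of 27 genes of the contractile apparatus, which does not rank the tissues since probe levels are not comparable between genes. Tagln and Cnn1, which define contractile smooth muscle, were below it on all 6 WT arrays, and Myh11 exceeded it on 2 RCA arrays and 1 LCA array. The endothelial receptors Kdr and Flt1 were also below it on all 6. In whole-vessel RNA, fewer cells of a type and less RNA per cell cannot be told apart.

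Across the 15395 genes tested, no gene passed an adjusted p under 0.05 in WT (limma with Benjamini-Hochberg adjustment, 0.0% of genes), and the smallest adjusted p was 0.192. At an unadjusted p under 0.05 there were 1062 genes, or 6.9%, of which 378 (2.46%) were higher and 684 (4.44%) lower in LCA, against 769.75 expected by chance if no gene differed. With the 6 WT arrays fitted alone the count was 565 (151 higher, 414 lower), which is below that number. The 3 LCA and 3 RCA values did not overlap for 1708 genes, or 11.1%, with 692 (4.49%) higher and 1016 (6.6%) lower. A gene without overlap is thus not rare with 3 arrays a side, and the phrase below only describes its values. Most differences were small: the median was -0.0012 log2 units, the 5th and 95th percentiles were -0.51 and 0.42, and 57 genes were higher and 153 lower by 1 log2 unit or more. The tilt towards lower genes depended on the arrays. It was larger without each RCA array (179 higher and 724 lower without replicate 1, 325 and 958 without replicate 2, 228 and 807 without replicate 3), and it held with replicate 3 of both sides left out (321 and 476). It turned when any one LCA array was left out: 1049 genes were higher and 938 lower without replicate 1, 674 and 586 without replicate 2, and 542 (3.52%) and 368 (2.39%) without replicate 3. In the fit without LCA replicate 3, 11 genes (0.0715%) passed the adjusted threshold, and with arrays weighted by their quality 561 were higher and 503 lower. In the main fit none of the differences below therefore passed over all 6 arrays, and genes that passed under an alternative are named as such. The words "at the nominal level" mean an unadjusted limma p under 0.05.

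**Figure D1:**
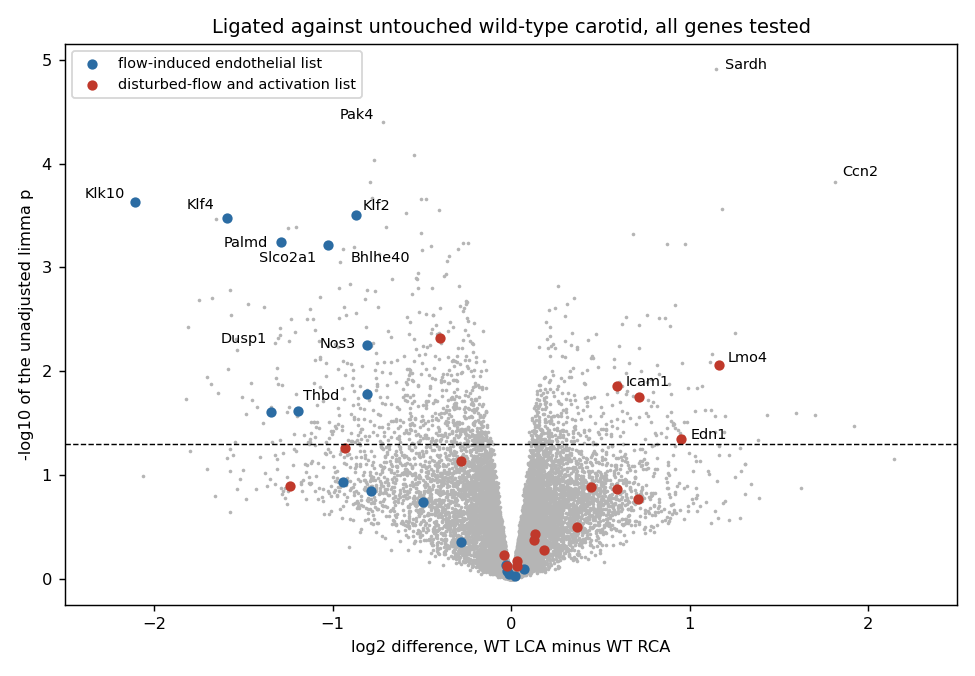
Each of the 15395 genes tested is a point, with its log2 difference (WT LCA minus WT RCA) on the x axis and -log10 of its unadjusted limma p on the y axis; the dashed line stands at 0.05. Activation genes are red. Flow-induced endothelial genes (blue) lie mostly on the left, from Klk10 at -2.11, while Sardh and Ccn2 lead on the right.

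Most genes listed for the flow-induced endothelial programme were lower in the ligated artery, though none passed in the main fit. The list was chosen with earlier results of these data known, so its counts are a description and not a test. Of 19 listed genes 18 were tested, 16 of them were below 0 (50.4% of all genes were), and the list's median was -0.81 log2 units beside -0.0012 over all genes. At the nominal level 9 of the 18 were lower and 0 higher, where 4.44% of all genes were lower. Whatever their p, 8 of the 18 were lower without overlap between the sides, where the share of all genes was 6.6%. Without LCA replicate 3 the median was -0.53 and 6 of 18 were lower at the nominal level, beside 2.39% of all genes. Over the 18 alternative settings the median lay between -1.27 and -0.53.

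KLF2 and KLF4 are the zinc-finger factors at the head of this programme. Their promoters are shown because both genes stand near the top of the comparison and endothelial flow sensing is known to reach Klf2 through MEF2 factors bound close to its start. Each window holds 250 bases before and 50 after the start site (RefSeq, GRCm38.p6), Klf2 at chr8:72318812-72319111 on the plus strand and Klf4 at chr4:55532426-55532725 on the minus strand. Capitals mark matches to the MEF2 consensus, to the GC box GGGCGG and to the CACCC box, searched on both strands with overlaps counted.
Klf2: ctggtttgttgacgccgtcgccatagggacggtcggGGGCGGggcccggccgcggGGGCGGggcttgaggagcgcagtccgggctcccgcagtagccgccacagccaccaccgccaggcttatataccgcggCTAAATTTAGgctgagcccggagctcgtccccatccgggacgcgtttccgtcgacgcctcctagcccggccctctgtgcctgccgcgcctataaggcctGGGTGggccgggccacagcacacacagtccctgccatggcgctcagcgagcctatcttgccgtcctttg
Klf4: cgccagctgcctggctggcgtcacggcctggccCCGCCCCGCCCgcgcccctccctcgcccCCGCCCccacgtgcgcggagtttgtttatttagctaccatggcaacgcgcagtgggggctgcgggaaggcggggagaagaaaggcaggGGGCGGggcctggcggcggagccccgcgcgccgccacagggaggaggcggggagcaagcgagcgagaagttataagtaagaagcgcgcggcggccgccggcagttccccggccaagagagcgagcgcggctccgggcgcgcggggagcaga

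The Klf2 window holds 1 MEF2 match, starting 118 bases before the start site (position -118), together with 2 GC boxes and 1 CACCC box. The Klf4 window holds 4 GC boxes and no MEF2 or CACCC match, and 1 E-box (CACGTG, not in capitals) that starts at -182. Neither window holds a TATA box (TATAAA). MEF2 matches occur in 3.19% of the 32851 promoter windows of the table, GC boxes in 35.7%, CACCC boxes in 57.5%, E-boxes in 7.15% and TATA boxes in 13.6%, and both windows are rich in G and C, at 69.3% and 74.3%. A match is a sequence feature only, and these arrays do not measure binding.

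Klf2 intensity was 180.0, 203 and 185 on the RCA arrays and 106, 95.9 and 109 on the LCA arrays. All 3 LCA values lay below all 3 RCA values, and 2 of them were below the background level, so the difference of -0.87 ± 0.16 (SE) log2 units is compressed (adjusted p = 0.325 in limma). Klf4 was 345, 481 and 588 in RCA against 154, 125 and 185 in LCA, again without overlap and by -1.59 ± 0.29 (adjusted p = 0.325 in limma). Its other 2 probes gave -1.42 and -0.84. Without LCA replicate 3 the differences of Klf2 and Klf4 were -0.91 and -1.73.

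Klk10, a secreted protease-family protein of laminar-flow endothelium, had the lowest log2 difference among the listed genes. It measured 977, 472 and 499 in RCA and 147, 122 and 160.2 in LCA, a difference of -2.11 ± 0.37 (adjusted p = 0.325 in limma). Every RCA value was well over the highest LCA value. Slco2a1, the prostaglandin transporter, was 413, 238 and 427 in RCA and 154, 155 and 208 in LCA, by -1.03 ± 0.21, and its 2 other probes read -1.43 and -0.73. Slco2a1 passed when RCA replicate 2 was left out (-1.30, adjusted p = 0.0181 in limma), and no other member of the list passed under any alternative. Palmd, whose product palmdelphin is an actin-associated protein, was 351, 540.1 and 314 against 181, 199 and 113, by -1.29 ± 0.26. Both genes were without overlap.

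Nos3, which encodes endothelial nitric oxide synthase, was tightly grouped in RCA at 175, 181 and 177 and measured 114, 108 and 84.5 in LCA, by -0.81 ± 0.23 (adjusted p = 0.576 in limma), with 3 further probes between -0.69 and -0.47. Thbd, the thrombin-binding anticoagulant receptor thrombomodulin, was 1737, 905 and 447 in RCA and 469.6, 371 and 335 in LCA. The highest LCA value exceeded the lowest RCA value, so its groups overlapped, with a difference of -1.20 ± 0.45. Tek, the angiopoietin receptor TIE2, was 239, 308 and 262 against 218, 167 and 99.0 (-0.80 ± 0.28), and Dhh, a hedgehog ligand, was 503, 763 and 332 against 175, 441 and 99.8 (-1.35 ± 0.51). For Tek and Dhh the lowest LCA value was on replicate 3, and without that array the differences were -0.49 and -0.85 and neither these genes nor Thbd reached the nominal level. Aqp1, a water channel and the brightest member, was 3428, 3593 and 3154 against 1864, 2848 and 2633, without overlap but short of the nominal level at -0.49 ± 0.34.

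Not all of the programme differed. The gap-junction gene Gja4 (0.073 ± 0.27) and the oxidase gene Cyp1b1 (0.023 ± 0.24) were the 2 members above 0. The other connexin gene, Gja5, had overlapping values and -0.28 ± 0.35, and the prostacyclin synthase gene Ptgis (-0.79 ± 0.49) and the scaffold gene Slc9a3r2 (-0.94 ± 0.54) had 1 LCA array within or above the RCA range. The antioxidant genes Nqo1 and Hmox1 and the natriuretic peptide receptor gene Npr1 lay near background on most arrays, so their differences near 0 say little.

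**Figure D2:**
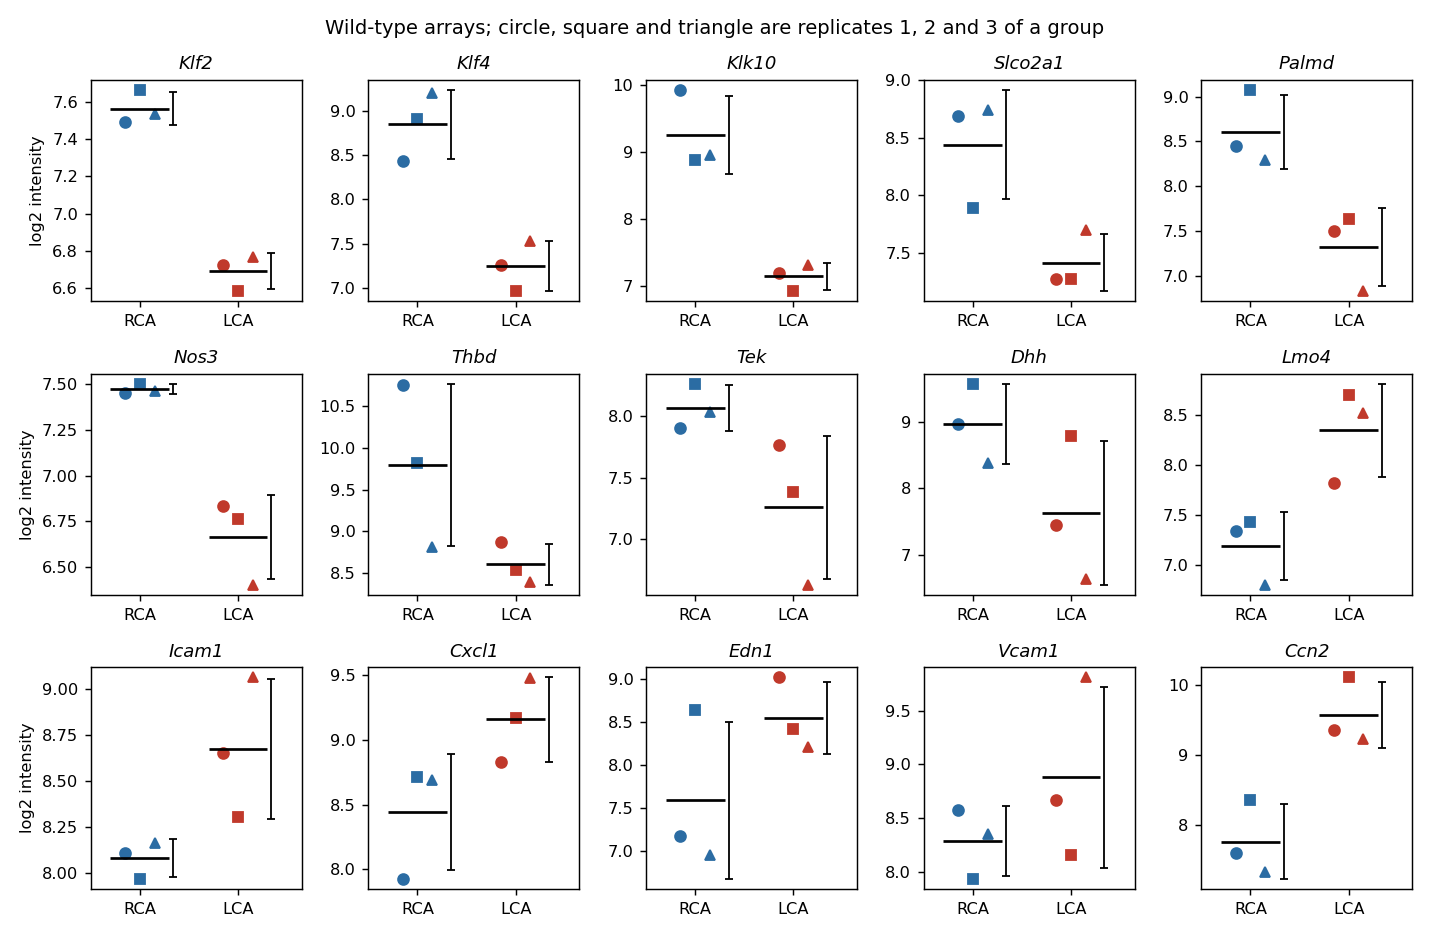
log2 intensity of 15 genes on the 3 WT RCA arrays (blue) and 3 WT LCA arrays (red); the line is the group mean and the bar beside it 1 SD, and each panel has its own y axis. Klf2, Klf4, Klk10, Slco2a1, Palmd and Nos3 are separated between the sides, whereas Thbd, Dhh, Edn1 and Vcam1 overlap.

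Endothelial markers as a list were also lower, by less. Of 21 markers 14 were below 0, where 50.4% of all genes were, and 5 were lower and 0 higher at the nominal level, where 4.44% of all genes were lower. The median was -0.32. Without LCA replicate 3 it was -0.27, and 2 were lower and 1 higher, beside 2.39% and 3.52% of all genes. Their summed intensity ranged from 7215 to 7649 on the RCA arrays and from 5453 to 6040.2 on the LCA arrays, without overlap. The 2 lists share Nos3 and Tek. Cdh5, the junction protein VE-cadherin, was 235, 266 and 245 in RCA and 172, 214 and 153 in LCA, by -0.48 ± 0.14, and Egfl7, a secreted endothelial protein, was 1622, 958 and 895 against 592, 537 and 534, by -1.01 ± 0.42. Ecscr also reached the nominal level at -0.52 ± 0.23. Pecam1, the pan-endothelial adhesion molecule CD31, did not follow them: it was 1041, 1459 and 753 in RCA and 1277, 928 and 1052 in LCA (0.042 ± 0.50), and Emcn was higher on all 3 LCA arrays at 322, 325 and 248 against 231, 207 and 180.1 (0.53 ± 0.47). The part that a difference in endothelial RNA has in the lower flow-induced genes was not tested.

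Genes of endothelial activation leaned the other way, as a few members rather than as a group. Of 19 tested members 13 were above 0 (49.6% of all genes were), the median was 0.13, and 4 were higher and 1 lower at the nominal level, beside 2.46% and 4.44% of all genes. Without LCA replicate 3 there were 3 higher and 2 lower, beside 3.52% and 2.39% of all genes. Lmo4, a LIM-domain transcription cofactor, was 162, 172 and 111 in RCA and 226, 419 and 367 in LCA, without overlap and by 1.16 ± 0.35 (adjusted p = 0.649 in limma), although its other probe read 0.16. Icam1, the leukocyte adhesion receptor, was 276, 250.02 and 286 against 403, 315 and 535 (0.59 ± 0.20), and the neutrophil chemokine gene Cxcl1 was 243, 419 and 414 against 454, 577 and 713 (0.72 ± 0.25). Both were without overlap, and both were short of the nominal level without LCA replicate 3, at 0.40 and 0.56.

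Edn1, which encodes the vasoconstrictor endothelin-1, was 145, 398 and 124 in RCA and 518, 341 and 295 in LCA, by 0.95 ± 0.41 with an overlap through RCA replicate 2. The adhesion genes Vcam1, Selp and Sele each had their highest value on LCA replicate 3, at 897, 825 and 177. Without that array Vcam1 moved from 0.59 to 0.13, Selp from 0.44 to 0.13 and Sele from 0.37 to 0.15. Bmp4, a secreted morphogen made by endothelium under disturbed flow, was 545, 670.2 and 259.6 against 1435, 768 and 377, by 0.71 ± 0.48 and by 1.20 without LCA replicate 3. Ackr3, a scavenging chemokine receptor, was the lower member at -0.40 ± 0.11, and Adamts1, a metalloproteinase, was at -0.93 ± 0.43. Without LCA replicate 3 Adamts1 was at -1.33 and also reached the nominal level.

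Among targets of the mechanosensitive YAP and TAZ cofactors, Ccn2 had the highest log2 difference. Ccn2, the matricellular connective tissue growth factor, was 193, 328 and 160.1 in RCA and 658, 1109 and 602 in LCA, by 1.81 ± 0.30 (adjusted p = 0.325 in limma). The lowest LCA value was above the highest RCA value, its second probe read 1.76, and without LCA replicate 3 the difference was 1.98. The list of 20 tested members had a median of 0.023, with 5 members at background on all 6 arrays. At the nominal level 1 member was higher and 2 lower, beside 2.46% and 4.44% of all genes. Ccn1, its close relative CYR61, ranged from 264 to 2030.3 in RCA and from 106 to 491 in LCA and overlapped (-1.24 ± 0.74). Thbs1, the matrix glycoprotein thrombospondin 1, was 125, 127 and 94.1 against 257, 268 and 97.5, so that its difference of 0.72 ± 0.36 came from 2 of the 3 LCA arrays and was 1.20 without the third. The lower members were Srf, the serum response factor, at -1.02 ± 0.40, and Dlc1 at -1.22 ± 0.51. The other probe of each read 0.046 and -0.012, and neither was at the nominal level without LCA replicate 3.

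Transforming growth factor beta genes showed no common direction. Of 22 tested, 11 were above and 11 below 0, and the median was -0.0084. At the nominal level 1 was higher and 3 lower, beside 2.46% and 4.44% of all genes. Bhlhe40, a basic helix-loop-helix repressor that also belongs to the clock, was 256, 230.1 and 160.2 in RCA and 119.6, 109 and 98.5 in LCA, without overlap and by -0.96 ± 0.20 (adjusted p = 0.377 in limma). Acvrl1, the endothelial receptor ALK1, was at -0.47 ± 0.17 with overlap. Tgif1, a repressor of SMAD signalling, was at background on all RCA arrays and measured 239, 337 and 86.7 in LCA, the last below background. The LCA mean was 1.90-fold above the RCA background level. Tgif1 passed when LCA replicate 3, its dim array, was left out (1.598, adjusted p = 0.00404 in limma), although its other probes read -0.087 and 0.23. The ligand gene Tgfb2 was at -0.35 ± 0.25 with overlap.

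Of 24 immediate early genes tested, 19 were above 0 (49.6% of all genes were), but the median was 0.080. Only Dusp1 reached the nominal level, as a lower gene, where 4.44% of all genes were lower. Dusp1, the MAP kinase phosphatase induced by shear and stress, was 1286, 513 and 359.6 in RCA and 224, 244 and 276 in LCA, without overlap and by -1.32 ± 0.37. Its spread lay in RCA, where replicate 1 was the highest. Jund (-0.77 ± 0.50) and Nr4a2 (0.32 ± 0.20) each had 1 bright array, RCA replicate 3 at 517 and LCA replicate 3 at 179.

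Of 17 clock genes tested 12 were below 0 (50.4% of all genes were), with a median of -0.050. Without LCA replicate 3 there were 10 below and 7 above 0, with 2 lower and 1 higher at the nominal level. The shares of all genes were then 2.39% and 3.52%. With all arrays 3 were lower at the nominal level, beside 4.44% of all genes. Beside Bhlhe40 these were Nr1d2, a REV-ERB repressor, at -0.71 ± 0.30 (-1.03 without LCA replicate 3), and Arntl, which encodes BMAL1, at -0.39 ± 0.16, both with overlap. Per1 (0.088 ± 0.12), Nr1d1 (-0.36 ± 0.31) and Dbp (-0.0018 ± 0.48), which are strong markers of clock time, did not separate the sides. Dbp was near background.

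Several glycolysis genes were lower. Of 22 glycolysis and hypoxia genes tested, 7 were lower and 0 higher at the nominal level and 6 of the 22 were lower without overlap, beside 4.44% and 6.6% of all genes, with a median of -0.077 (-0.075 without LCA replicate 3). Hk1, a hexokinase gene, was 116, 143 and 180.0 in RCA and 103, 97.9 and 112 in LCA (-0.47 ± 0.13), and Ldha, for lactate dehydrogenase, was 259.6, 279 and 279.8 against 203, 202 and 152 (-0.57 ± 0.18). Aldoa (-0.74 ± 0.26), Gapdh (-0.43 ± 0.16), Pgam1 (-0.63 ± 0.27), Pfkm (-0.32 ± 0.14) and Vegfa (-0.43 ± 0.15) made up the rest. Hk1 and Ldha without LCA replicate 3 were still at the nominal level and the other 5 were not, at -0.45 for Aldoa to -0.28 for Pfkm. The other probe of Hk1 read -0.058. Of 25 oxidative phosphorylation genes tested none reached it with all arrays, the median was 0.038, and the 3 with the smallest p, Cox6c (-0.63 ± 0.31), Uqcrfs1 (0.26 ± 0.14) and Ndufb8 (1.04 ± 0.63), all overlapped.

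Heat shock and unfolded protein response genes had a median of -0.13 over 27 tested, with 2 lower at the nominal level, beside 4.44% of all genes. They were the endoplasmic reticulum chaperone gene Hspa5 (-0.77 ± 0.29) and the stress factor gene Atf4 (-0.74 ± 0.30). The small heat shock gene Hspb8 followed at -1.04 ± 0.49, and all 3 overlapped. Of 25 antioxidant genes tested 2 were higher and 1 lower, beside 2.46% and 4.44% of all genes. Gstt1, a glutathione transferase gene, was 111, 125 and 95.6 in RCA and 173, 152 and 209 in LCA, by 0.68 ± 0.13 (adjusted p = 0.325 in limma). Cat, for catalase, was 141, 229 and 200.1 against 282, 442 and 296 (0.84 ± 0.35). Both were without overlap, and Txn1, for thioredoxin, was the lower gene at -0.69 ± 0.30 with overlap.

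Of 27 contractile genes tested 5 were lower and 0 higher at the nominal level (2 lower without LCA replicate 3), beside 4.44% of all genes lower (2.39% without that array), with a median of -0.039. Sgcd, the delta-sarcoglycan of the dystrophin complex, was 205, 234 and 249 in RCA and 141, 136 and 119.9 in LCA, without overlap and by -0.79 ± 0.13 (adjusted p = 0.325 in limma), while its other probe read -0.17. Myl6, a myosin light chain gene, was at -0.64 ± 0.28 on both of its probes, with overlap. Vcl (-0.43 ± 0.19), Actg2 and Des completed the 5, the last 2 at background on every LCA array. Acta2, for smooth muscle actin, ran from 89.9 to 514 in LCA and did not separate the sides (0.37 ± 0.63).

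Elastic fibre genes had a median of -0.18 over 17 tested, 13 of them below 0 (50.4% of all genes were). At the nominal level 2 were lower, beside 4.44% of all genes. These were Mfap5, a microfibril component, at 159.6, 219 and 148 in RCA and 116, 123 and 103 in LCA (-0.60 ± 0.18, no overlap), and Efemp1, for fibulin-3, at -0.86 ± 0.38 with overlap. Mmrn2, an endothelial matrix protein gene, was at -0.78 ± 0.37, and elastin itself, Eln, was 281, 634 and 390.4 against 509, 237 and 113 (-0.79 ± 0.70). Lox, whose enzyme crosslinks elastin and collagen, was lower on all 3 LCA arrays, at 156, 167 and 187 against 192, 223 and 263, but by -0.40 ± 0.38.

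Fibrillar collagen genes centred on 0, with a median of -0.024 over 19 tested and 3 lower at the nominal level, beside 4.44% of all genes. Col1a2 was 131, 166 and 148 in RCA and 121, 123 and 94.3 in LCA (-0.40 ± 0.17). Fmod and Col11a1 were at background on all LCA arrays, which makes them at least 1.03-fold and 1.05-fold lower there. Dcn, for the proteoglycan decorin, was higher on all 3 LCA arrays, at 151, 253 and 139 against 117 on each RCA array, without reaching the nominal level (0.58 ± 0.43). Among 18 basement membrane genes 2 were lower and 1 higher, beside 4.44% and 2.46% of all genes, with a median of -0.0047. Lama5 (-0.63 ± 0.23) and Hspg2, for perlecan (-1.10 ± 0.43), were the lower genes and had no overlap. Sparcl1, at background in RCA, had an LCA mean 1.08-fold above the RCA background level. Only 1 of its LCA arrays exceeded background, so this is no secure bound. Without LCA replicate 3 none of the 18 was at the nominal level.

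Metalloproteinases and their inhibitors were below 0 for 14 of 17 tested (50.4% of all genes were), with a median of -0.10. At the nominal level 2 were lower, both with overlap, beside 4.44% of all genes. Timp3, the matrix-bound inhibitor, was 928, 918 and 613 in RCA and 589.7, 385 and 634 in LCA (-0.62 ± 0.25), with 2 further probes at -1.30 and -0.74, and Mmp2, for gelatinase A, was at -0.51 ± 0.23. Of 16 coagulation genes tested Thbd was the only 1 at the nominal level, as a lower gene, beside 4.44% of all genes. Anxa2 (-0.87 ± 0.42) and the urokinase receptor gene Plaur (-0.21 ± 0.11) followed. In the Notch and arterial identity list 16 of 21 were below 0 (50.4% of all genes were), with a median of -0.11. At the nominal level 3 were lower, beside 4.44% of all genes. They were Notch4 (-0.60 ± 0.20, no overlap), the ligand gene Jag1 (-0.86 ± 0.35) and Ephb4 (-0.63 ± 0.26), whose other probes read -1.31 and 0.64. Of 16 BMP pathway genes none was at it, the median was 0.062, and the ligand gene Bmp6 was higher on all LCA arrays (0.73 ± 0.34), with Smad5 (-1.01 ± 0.60) set by RCA replicate 3 and Smad6 at background on all 6 arrays.

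Chemokine and cytokine genes were mostly dim, so the arrays say little on whether they responded. Of 34 listed 25 were tested. Of these 3 exceeded background on all RCA arrays, 1 on all LCA arrays and 6 on no WT array. Those above 0 numbered 18 (49.6% of all genes were), with a median of 0.11. At the nominal level 2 were higher, Cxcl1 and Ccl19, beside 2.46% of all genes. Ccl19 was at background on all RCA arrays and at least 1.00-fold higher in LCA, and Ccl5 was likewise dim. Of 19 interferon-stimulated genes tested none was at the nominal level (median 0.019). Bst2 was higher in LCA through replicate 3 (0.75 ± 0.38), Oasl2 was bright on 1 RCA array and at background on all LCA arrays, and Stat2 was at -0.12 ± 0.077.

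Markers of blood and other cells were mostly dim. No macrophage marker of 18 tested exceeded background on all arrays of either side, none was at the nominal level, and their summed intensity ran from 1693 to 1918 in RCA and from 1761 to 2309 in LCA. The 3 with the smallest p were Lyve1 (-0.68 ± 0.33), Tyrobp (0.81 ± 0.42) and Adgre1 (0.12 ± 0.071). Neutrophil markers summed to 1322 to 1405 in RCA and to 2376, 1347 and 1774 on LCA replicates 1, 2 and 3. S100a9, a granulocyte calcium-binding protein gene, was 709, 147 and 334 in LCA against 115 to 150.0 in RCA (1.26 ± 0.70), and S100a8 was 422, 89.0 and 92.4, so S100a8 was high on LCA replicate 1 alone and S100a9 on replicates 1 and 3. Il1r2, at background in RCA, was at least 1.19-fold higher. It was the only 1 of 14 neutrophil genes at the nominal level, where 2.46% of all genes were higher. Cxcr2 (0.19 ± 0.10) and Csf3r (-0.099 ± 0.055) were next.

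The other marker lists gave similarly little. Of 9 lymphocyte genes tested Cd2 was lower at the nominal level (-0.29 ± 0.12), beside 4.44% of all genes. Cd4 was near background and Ms4a1 at least 1.09-fold higher. Erythrocyte markers summed to 1363, 3299 and 3103 in RCA and 2523, 3366 and 3955 in LCA (median 0.31 over 8), a spread as wide within a side as between them, and Alas2, Bpgm and Epb42 all lay near background on most arrays. No platelet gene of 7 was at the nominal level (median 0.045), where Gp9 was bright (0.15 ± 0.28) and Alox12 and Clec1b dim. Adipocyte genes (median 0.019 over 17, Retn, Lipe and Dgat2 at or near background), Schwann and nerve genes (median -0.012 over 12), skeletal muscle genes (median 0.018 over 13) and thyroid genes (median 0.10 over 5, with Iyd and Tshr at background and Pax8 overlapping) summed to overlapping levels on the 2 sides. Within these, Pmp22 (-0.40 ± 0.12) was lower, Ncam1 was at least 1.22-fold and Tnnt1 at least 1.01-fold lower, Mylpf was at least 1.03-fold higher, and Actn3 and Mag were dim.

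Fibroblast markers had a median of 0.0077 over 18 tested but were lower in sum, at 2393 to 2911 in LCA against 3259 to 3946 in RCA. Pi16, a marker of adventitial fibroblasts, was the member with the lowest difference: it was 495, 1118 and 359.8 in RCA and 185, 345 and 90.6 in LCA (-1.70 ± 0.54, no overlap). Lum was at background in RCA and at least 1.18-fold higher in LCA. The summed levels of the elastic fibre, basement membrane and metalloproteinase lists were likewise lower on all 3 LCA arrays than on any RCA array. The same held for the flow-induced, endothelial, Notch, clock, heat shock and plasma protein lists, so it is not particular to matrix genes. Sums of the fibrillar collagen list were not lower (5646, 5326 and 6082 in LCA against 5321, 5315 and 4388 in RCA), nor were those of the cholesterol list. The part of fibroblast RNA in these differences was not tested.

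Of 12 plasma protein genes tested, the 3 at the nominal level were copies of the alpha-1-antitrypsin gene, a serine protease inhibitor. All 3 were lower without overlap. Of all genes 4.44% were lower at the nominal level and 6.6% lower without overlap. Serpina1b was 706, 299 and 277 in RCA and 144, 127 and 103 in LCA (-1.65 ± 0.31, adjusted p = 0.325 in limma), Serpina1d was 203, 165 and 191 against 120.3, 103 and 104 (-0.77 ± 0.12), and Serpina1a was 245, 152 and 159.9 against 115, 99.1 and 102 (-0.79 ± 0.31). The median of the list was 0.0061. These paralogs are nearly identical in sequence, so their probes may read one another's RNA and count as fewer than 3 separate results.

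Growth-related lists had medians near 0 with all arrays. Of 26 cell cycle genes tested 2 were lower at the nominal level (median -0.0078), beside 4.44% of all genes. Cdkn1b, for the cyclin-dependent kinase inhibitor p27, was 672, 622 and 237 in RCA and 202, 160.3 and 94.0 in LCA (-1.68 ± 0.40, no overlap), but its other 2 probes read -0.069 and 0.092. Cdkn1b passed with replicate 3 of both sides left out (-1.85, adjusted p = 0.0406 in limma). Cdc20 was at -0.38 ± 0.14 and Tyms at -0.21 ± 0.10. Of 34 ribosomal protein genes tested Rpl4 (0.36 ± 0.14) and Rpl28 (0.70 ± 0.28) were higher and Rplp2 (-0.66 ± 0.26) lower at the nominal level. The shares of all genes were 2.46% higher and 4.44% lower. The median was 0.031, and it was 0.12 without LCA replicate 3, where 23 were above and 11 below 0. Among 14 cholesterol genes Msmo1, at background in LCA, was the 1 at the nominal level, as a lower gene, beside 4.44% of all genes. Insig1 (0.36 ± 0.27) and Srebf1, bright on 1 LCA array, were next.

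**Figure D3:**
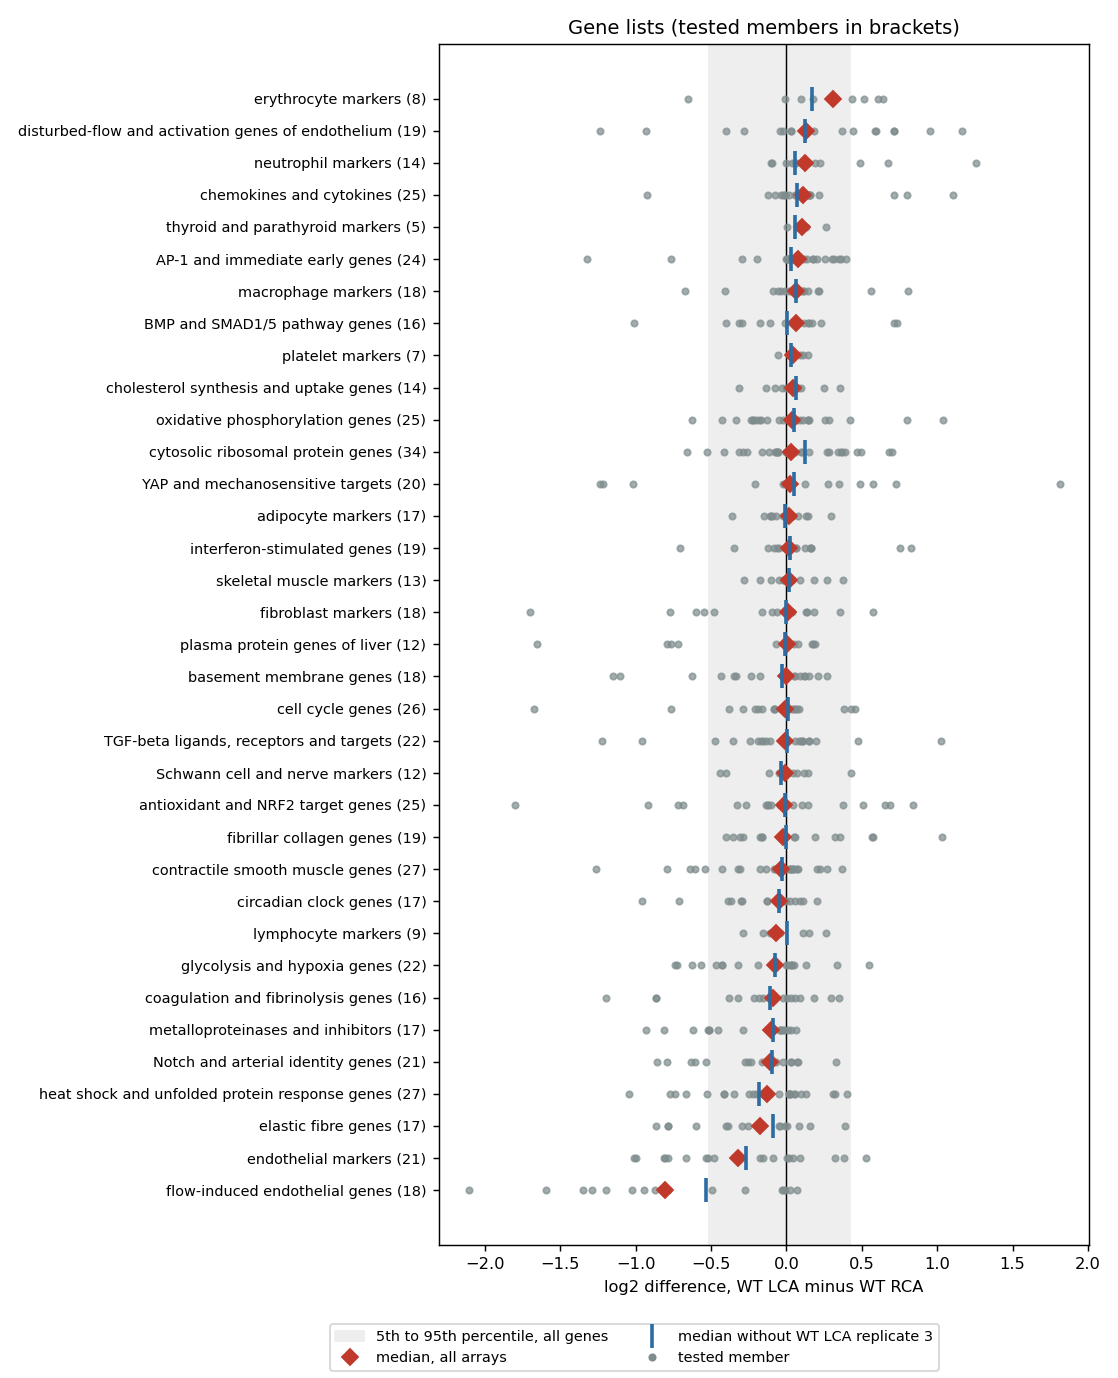
The 35 gene lists, with the number of tested members in brackets, ordered by their median log2 difference (WT LCA minus WT RCA, x axis). Grey points are members, red diamonds medians over all arrays, blue ticks medians without WT LCA replicate 3, and the shaded band the 5th to 95th percentile of all genes (-0.51 to 0.42). The flow-induced list, at -0.81 and -0.53, lies at the bottom, followed by endothelial markers at -0.32.

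Outside the lists, the genes with the smallest p that were clear of background on at least 1 side and did not overlap were a varied set. Sardh, which encodes the mitochondrial sarcosine dehydrogenase, had the smallest p of all. It was 108, 109 and 122 in RCA and 292, 269 and 196 in LCA, by 1.15 ± 0.14 (adjusted p = 0.192 in limma), and it passed without LCA replicate 3 (1.32, adjusted p = 0.00257 in limma) and under array weights (1.28, adjusted p = 0.0102 in limma). Anapc4, a subunit of the anaphase-promoting complex, was 183, 223 and 196 against 516, 530.2 and 343 (1.18 ± 0.21). Tlr4, the receptor for bacterial lipopolysaccharide, was 152, 167 and 136 against 278, 226 and 267 (0.76 ± 0.19), though its 2 other probes read -0.031 and 0.045.

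The remaining higher genes were Rab1a, a GTPase of early secretion (0.97 ± 0.19), Sdcbp, for the adaptor syntenin (0.92 ± 0.22), Mbd2, a methyl-DNA binding protein gene (0.87 ± 0.17), Slc8a1, a sodium-calcium exchanger gene (0.86 ± 0.22), H3c14, for histone H3 (0.64 ± 0.16), Ada, for adenosine deaminase (0.35 ± 0.083), and Pphln1 (0.30 ± 0.076), beside Ccn2 and Gstt1. Rab1a, Mbd2 and Slc8a1 passed when LCA replicate 1 was left out (1.23, 1.09 and 1.19, adjusted p = 0.0118, 0.0182 and 0.00326 in limma). Second probes gave less, at -0.062 for Rab1a, -0.22 for Mbd2 and -0.0023 for Ada. The other probes of Sdcbp (-0.033 to 0.35), Slc8a1 (-0.034 to 0.19), H3c14 (0.00098 to 0.20) and Pphln1 (-0.15 to 0.26) also read less. Over all genes with more than 1 kept probe, the other probes had the same sign for 56.3% of 6412 genes and for 66.2% of the 533 genes at the nominal level.

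Among lower genes Pak4, a kinase that acts on actin, had the smallest p, at 180.4, 146 and 142 in RCA and 102, 95.2 and 86.1 in LCA (-0.72 ± 0.10, adjusted p = 0.308 in limma). Atp8b1, a phospholipid flippase gene, was 139, 140.1 and 159 against 105, 99.7 and 95.8 (-0.54 ± 0.084). Kcnn4, the calcium-activated potassium channel of endothelium and white cells, was 166, 125 and 149 against 103, 96.0 and 92.6 (-0.59 ± 0.11). Rtl8a (-0.78 ± 0.14), the purine synthesis gene Paics (-0.50 ± 0.088) and the autophagy gene Atg9b (-0.48 ± 0.083) followed, and Prrt4, at background in LCA, was at least 1.13-fold lower. Other probes gave less for several of these too, at -0.14 and -0.097 for Atp8b1, -0.019 for Atg9b and -0.31 for Rtl8a. Klk10, Klf2, Klf4, Sgcd and Serpina1d completed the lower genes. For most of these the LCA values lay close to background, where differences are compressed.

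**Figure D4:**
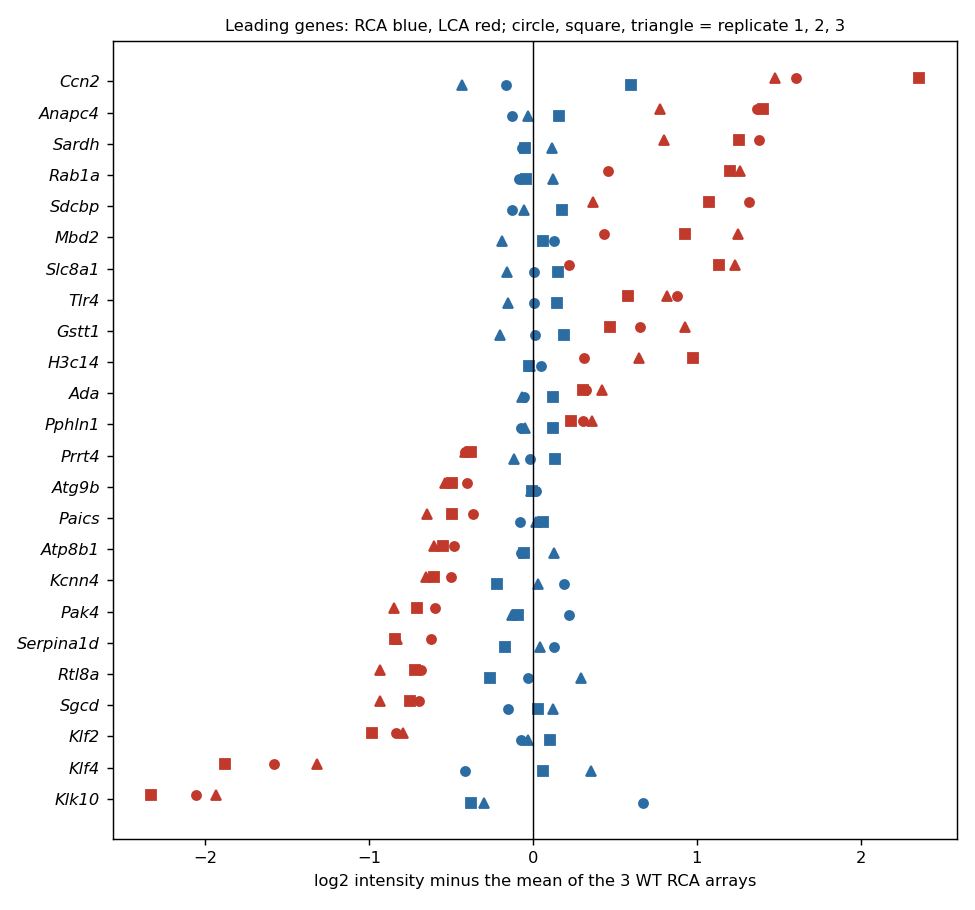
Leading genes (12 on each side, by p, without overlap), as log2 intensity minus the mean of the 3 WT RCA arrays (x axis). RCA arrays are blue and LCA arrays red. Ccn2 and Klk10 lie farthest out, and LCA replicate 3 (red triangle) is nearest to RCA for Anapc4, Sardh and Sdcbp.

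The ligation effect of the KO arteries, which shares no array with that of WT, is given beside it. In KO no gene passed either, with 432 genes (2.81%) higher and 625 (4.06%) lower at the nominal level, and the KO groups did not overlap for 19.9% of genes. The flow-induced list had a KO median of -0.49, with 14 of 18 below 0 and 5 lower and 1 higher at the nominal level. Klf2 was at -0.83 ± 0.16 in KO beside -0.87 in WT, Klf4 at -1.18 ± 0.29 beside -1.59, Nos3 at -0.70 ± 0.23 beside -0.81, Klk10 at -1.08 ± 0.37 beside -2.11, Ccn2 at 1.15 ± 0.30 beside 1.81 and Lmo4 at 1.59 ± 0.35 beside 1.16. Slco2a1 (-0.23 ± 0.21) and Palmd (-0.49 ± 0.26) were nearer 0 in KO.

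The difference between the 2 ligation effects passed for no gene (limma with Benjamini-Hochberg adjustment, 0.0% of genes), and at the nominal level it was higher in WT for 206 genes (1.34%) and lower for 336 (2.18%). For Icam1 the WT effect was 0.59 and the KO effect -0.38, which differ by 0.97 ± 0.28, and for Dusp1 they were -1.32 and 0.19, which differ by -1.51 ± 0.52, each with adjusted p = 0.902 in limma. The genes with the smallest p for this difference were Sardh (0.99 ± 0.20), Anapc4 (1.08 ± 0.30) and Spcs3 (1.62 ± 0.45) on the higher side and Pak4 (-0.76 ± 0.14), Cd163 (-0.83 ± 0.16) and Ei24 (-0.93 ± 0.18) on the lower, all at adjusted p = 0.902 in limma. For Spcs3 and Cd163 the larger effect was in KO, at -1.85 and 0.74 against -0.23 and -0.089 in WT. With all arrays, none of the WT differences above is therefore shown to be larger or smaller than in KO. Without WT LCA replicate 3 the difference passed for 3 genes, of which Tgif1 is named above.

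**Figure D5:**
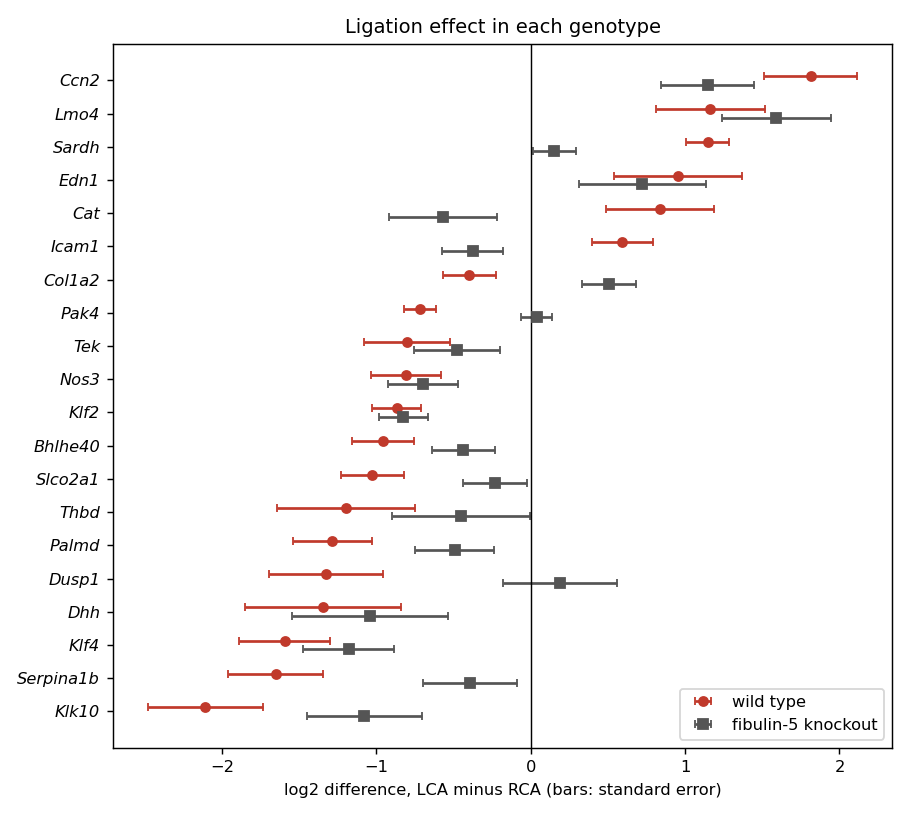
log2 difference between LCA and RCA (x axis) with its standard error for 20 genes in WT (red circles) and KO (grey squares), 3 arrays a group. Klf2, Nos3, Klf4 and Ccn2 lie on the same side of 0 in both genotypes, and Icam1, Cat, Col1a2 and Dusp1 on opposite sides.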

How the data were processed

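Total RNA of mouse carotid arteries was labelled with biotin and hybridised to 12 one-colour Illumina arrays, per the labels' protocols. The authors deposited linear intensities, 1 intensity per array for each of 45281 probes. The sorted values of the 12 arrays differ by at most 0.564%, which is what quantile normalization by the authors gives, and for the scanner software and background step nothing is stated: not given in the sources used. The platform annotation gave 34885 probes 1 gene symbol, 18 several and 10378 none. The last 2 kinds were left out of the tests. Named probes had to reach the array median on 3 or more arrays (25796 did), and the brightest kept probe stood for each of 15395 genes.

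With limma 3.58.1 in R 4.3.3, 1 model with 4 group means was fitted to log2 intensities (floor 1) of all 12 arrays, with eBayes, two-sided tests and Benjamini-Hochberg adjustment over all genes, threshold 0.05. The code was tested on simulated data. A gene is at background in a group where no array exceeds that array's 95th percentile of receptor probes. Its fold is then a bound ("at least") of the other group's mean against that level, with no error. The bound is approximate, since that mean can include arrays below their own background and the level differed between arrays. The number of arrays limits the precision.

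Members and the 35 gene lists were chosen with earlier results of these data known, and no set test was run. Genes named are the 12 higher and 12 lower with the smallest p without overlap, clear of background on 1 side and not predicted genes, 3 of smallest p from each list, 3 on each side of the interaction, and a fixed set of flow genes. Other genes named beside them were chosen after their values were seen. Promoters came from RefSeq, with Ccn2 not analysed here.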

Additional observations from a re-analysis of the deposited data

How the results depend on the processing

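The 18 alternatives were each set against the main setting. No gene passed in WT under the 6 WT arrays alone, either replicate block, eBayes with trend and robust, the other dim-probe filters, a pseudocount of 16, 72 subtracted with 16 added, or median centring. Array weights passed 1 gene, the mean of kept probes 3, and leaving out replicate 3 of both sides 11. Leaving out 1 WT array at a time passed 0 to 11 genes, 11 without LCA replicate 3 and 10 without LCA replicate 1. The nominal count, 1062, was 565 with the 6 WT arrays alone and 643 under the 75th percentile filter. It ran from 903 to 1987 without 1 array, highest without LCA replicate 1. Of the 35 list medians 16 changed sign under some alternative. For 20 lists the median moved by at least the SD of the list's mean log2 value between arrays of a side. The plasma protein median (0.0061) ran from -0.74 to 0.067 and the basement membrane median (-0.0047) from -0.21 to 0.024. The WT minus KO difference passed for 0 to 3 genes without 1 array and for none otherwise. The cause was not tested.

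Of 135 named genes 7 changed sign somewhere: Jund (0.11), Alas2 (0.045) and Nr1d1 (0.023) without replicate 3 of both sides, Srebf1 (-0.041) without LCA replicate 2 (-0.041 to 0.42 without 1 array), Gp9 without RCA replicate 1 (-0.024) or LCA replicate 3 (-0.11; -0.11 to 0.45), and Per1 under the mean of kept probes (-0.20) or without RCA replicate 1 (-0.018) or LCA replicate 3 (-0.044; -0.044 to 0.16). Dbp, near 0, turned under array weights (0.030), 72 subtracted with 16 added (0.014), median centring (0.0075) and without RCA replicate 2 (0.11), LCA replicate 1 (0.016) or LCA replicate 3 (0.044), with a range of -0.080 to 0.11 without 1 array.

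Replicate numbers were not treated as pairs: deviations of same-numbered WT arrays correlated at 0.036, 0.048 and 0.072, and those of KO arrays at -0.016, -0.0042 and 0.040. With the replicate block the nominal count was 999 (fixed) or 1190 (random, consensus correlation 0.063), and no gene passed. In WT, but not in KO, each array correlated best with its own number.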

Other observations

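Signal over background limits what can be read here. Only 1639 of the 15395 genes tested exceeded the receptor-probe level on all 6 WT arrays, and 4009 exceeded it on none. Among the 1639, 5.43% were higher and 6.28% lower at the nominal level, with a median of 0.047 log2 units. Among the 4009, 1.70% were higher and 0.574% lower. Slc44a2, for a choline transporter-like protein, and Rtf2 passed only under the mean of kept probes, at -1.10 and -0.51 (adjusted p = 0.0485 each in limma), which were -0.66 and -1.09 on the brightest probe.

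Among the 11 genes that passed without LCA replicate 3, 3 were picked after their values were seen: P2ry6, a receptor for extracellular nucleotides, at -1.37 (adjusted p = 0.0414 in limma), Ptpn11, for the phosphatase SHP2, at 2.28 (adjusted p = 0.0172 in limma) and Cyth1, for an ARF exchange factor, at 1.05 (adjusted p = 0.00668 in limma). With all 6 WT arrays they were at -0.97, 1.31 and 0.67.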
